A study of Mus musculus with 15 samples.

Results

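Exc_23 is 1 of 26 clusters of excitatory neurons that the authors distinguished in single-cell RNA sequencing of the mouse prefrontal cortex (PFC). Its cells were taken as the cells that carry this cluster name in the deposited cell annotation, in all libraries. They numbered 668 of 35360 retained cells, of which 547 came from adult mice (P60) and 121 from mice at P21. No cell barcode of the cluster was shared between libraries. Of the 668 cells, 661 also carried the authors' broad class of excitatory neuron, while 3 were classed as endothelial and 1 each as astrocyte, inhibitory neuron, microglia and oligodendrocyte precursor.

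The study captured dissociated PFC cells of male C57BL/6N mice in droplets and counted unique molecular identifiers (UMIs), each of which marks 1 captured RNA molecule. Adult mice of 8 to 10 weeks self-administered saline or cocaine through a catheter, and their PFC was taken during maintenance of the self-administration, after 48 h of withdrawal or after 15 days of withdrawal. Each of these 6 groups had 2 libraries (saline: libraries 2 and 3, 5 and 7, 11 and 12; cocaine: libraries 1 and 4, 6 and 8, 9 and 10, in the order of the time points), and 3 further libraries came from mice at P21 that received no self-administration. A library pooled the tissue of 2 mice, and the methods give 4 mice for the 3 P21 libraries. The tissue label of every sample names the nucleus accumbens, where titles and methods name the PFC. The authors gave the P21 cells their cluster names by correlation with the P60 clusters. The age of a cell and the level of a cluster's genes are therefore not independent. Since no library held both ages, age and library preparation cannot be told apart. The P60 mice had food training, a catheter and self-administration, so age and these procedures cannot be told apart either.

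Excitatory neurons of the cortex release glutamate and are grouped by layer and by projection. Intratelencephalic (IT) neurons connect areas of the cortex and the striatum, pyramidal tract neurons of layer 5 project to the brainstem and spinal cord, and corticothalamic neurons of layer 6 project to the thalamus. The transcription factor Rorb, a nuclear receptor, is a textbook marker of IT neurons of layer 4 and of the neighbouring part of layer 5, and the adult PFC of the mouse has no distinct layer 4.

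The levels below are CPM, the UMIs of a gene per 1000000 UMIs of the cluster in a library, given as mean ± SD over the 12 P60 libraries unless stated otherwise. The neurons of Exc_23 carried the general genes of cortical excitatory neurons, and all 7 such markers were at 10 CPM or more. Slc17a7, the vesicular glutamate transporter, was at 551 ± 163 CPM and the kinase gene Camk2a at 455 CPM. The inhibitory neuron list summed to 15.8 CPM, rank 26 of the 26 clusters, and the lists of oligodendrocytes (90.7 CPM, rank 24), microglia (15.6 CPM, rank 23) and endothelial cells (35.6 CPM, rank 23) were also near the bottom of the order. The astrocyte list, at 650 CPM, held rank 5, and 548 CPM of it was the glutamate transporter Slc1a2, which was at 105 to 882 CPM in every other excitatory cluster.

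The stretches in front of the start sites of Rgs10, Aldh1l1 and Scn7a are shown because these were among the genes that most set these neurons apart from the other excitatory neurons. Rgs10 encodes a regulator of G-protein signalling, Aldh1l1 a folate enzyme best known as an astrocyte marker, and Scn7a the sodium-sensing channel Nax. The stretches run from 250 bases before to 50 after the RefSeq start site in build GRCm38.p6, at chr7:128418123-128418422 on the minus strand for Rgs10, chr6:90550543-90550842 on the plus strand for Aldh1l1 and chr2:66784861-66785160 on the minus strand for Scn7a, each printed 5′ to 3′ on the strand of the gene. Capitals mark the core of the sequence to which receptors of the Rorb family bind (AGGTCA, or TGACCT on the other strand) or an E-box of the kind bound by neuronal basic helix-loop-helix factors (CAGATG, or CATCTG).
Rgs10: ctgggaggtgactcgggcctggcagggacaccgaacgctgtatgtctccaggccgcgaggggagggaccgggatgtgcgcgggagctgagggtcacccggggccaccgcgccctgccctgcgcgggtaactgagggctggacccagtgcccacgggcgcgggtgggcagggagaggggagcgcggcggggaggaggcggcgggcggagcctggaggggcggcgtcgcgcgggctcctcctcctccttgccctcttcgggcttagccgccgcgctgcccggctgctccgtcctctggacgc
Aldh1l1: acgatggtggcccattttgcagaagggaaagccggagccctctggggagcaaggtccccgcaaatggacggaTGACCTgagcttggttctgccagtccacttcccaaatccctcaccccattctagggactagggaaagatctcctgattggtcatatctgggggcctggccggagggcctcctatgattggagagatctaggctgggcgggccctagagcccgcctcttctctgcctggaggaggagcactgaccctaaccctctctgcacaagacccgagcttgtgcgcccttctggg
Scn7a: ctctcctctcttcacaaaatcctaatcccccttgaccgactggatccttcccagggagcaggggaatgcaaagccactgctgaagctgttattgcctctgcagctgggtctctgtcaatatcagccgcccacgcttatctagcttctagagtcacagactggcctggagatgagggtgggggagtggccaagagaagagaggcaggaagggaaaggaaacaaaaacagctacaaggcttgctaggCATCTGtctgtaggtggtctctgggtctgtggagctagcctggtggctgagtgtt

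Aldh1l1 held 1 copy of the AGGTCA core, Scn7a 1 copy of the CAGATG box, and Rgs10, at 76.0% G and C, held neither. Among the 15 leading genes, 11 had a RefSeq stretch, and 4 of the 11 held the AGGTCA core on either strand against 16.0% of 27025 promoters. The CAGATG box was in 1 of the 11 against 17.2% of all. These matches describe the letters and not binding.

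In all, 15 genes were more than 1.5-fold above the next cluster in mean CPM at P60, among 6160 genes of at least 20 CPM. The clusters had a median of 3 such genes, and Exc_23 had rank 3. Since the clusters were drawn from these same cells, the levels describe the cluster and carry no test. The gene nearest inside the limit was Lsm11 at 1.51-fold, and the nearest outside was Nuak1 at 1.49-fold.

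Rgs10 (ENSMUSG00000030844, NCBIM37 chr7:135517135-135562272) stood out most. It was at 113 ± 25.5 CPM, from 72.7 in library 6 to 156 in library 10 with a median of 105, and the next cluster, Exc_18, was at 38.6 ± 13.1 CPM. The lowest library of Exc_23 thus lay above the mean of every other excitatory cluster. Rgs10 is also a gene of microglia, at 2358 CPM there, and of inhibitory neurons, at 704 CPM. In Exc_23 the microglial complement gene C1qa was at 4.51 CPM and the inhibitory gene Gad1 at 0.993 CPM.

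Thsd7a (ENSMUSG00000032625, NCBIM37 chr6:12261610-12699410), which encodes a membrane protein with thrombospondin domains, was at 96.3 ± 27.8 CPM, from 48.5 through a median of 102 to 128. Its next cluster, Exc_10, was at 48.8 ± 25.2 CPM, and Exc_23 was higher in 12 of 12 libraries. The median of the other 25 clusters was 1.22 CPM, so the gene was low in most excitatory neurons.

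Scn7a (ENSMUSG00000034810, NCBIM37 chr2:66511482-66622971) was at 70.9 ± 22.3 CPM, from 36.3 in library 3 through a median of 69.2 to 122 in library 1. Exc_15 followed at 36.6 ± 11.4 CPM, and Exc_23 was higher in 8 of the 8 libraries in which both could be compared. Other clusters like Exc_23 also carried the gene, with Exc_16 at 36.4, Exc_6 at 32.8 and Exc_17 at 30.6 CPM. Slc24a3, an exchanger that moves calcium out of the cell against sodium and potassium, was at 161 ± 40.0 CPM against 96.3 ± 18.5 in Exc_15 and a median of 14.6 over the other clusters.

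The remaining leading genes had several roles. Plxnd1, a receptor for semaphorin guidance cues, was at 59.7 ± 10.4 CPM and Ptgfrn, a membrane protein with immunoglobulin domains, at 63.9 ± 12.4 CPM, with Exc_10 next in both (33.0 and 36.5 CPM). Aldh1l1 was at 23.4 ± 7.49 CPM, G0s2, an inhibitor of the fat lipase ATGL, at 33.3 ± 8.46 CPM, and Pde1b, a calmodulin-dependent phosphodiesterase, at 71.8 ± 21.9 CPM. Aldh1l1 was at 216 CPM in astrocytes, and G0s2 was at 507 CPM in oligodendrocyte precursors. In Exc_23 the astrocyte markers Gja1 (rank 7) and Aqp4 were at 1.57 and 0.57 CPM. The astrocyte list held rank 5 by sum, and 3 of its 7 members were at 10 CPM or more. These were Slc1a2 at 548 CPM, Aldoc at 76.2 CPM and Apoe. The part of astrocyte RNA in the level of Aldh1l1 was not tested. The other 6 leading genes were Klhl8, Tspan9, Fjx1, Hbegf, Ttpal and Lsm11, at 1.51- to 1.74-fold over the next cluster. The heat map of the leading genes shows that their next highest levels fell mostly in Exc_10 and Exc_15.

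**Figure D1:**
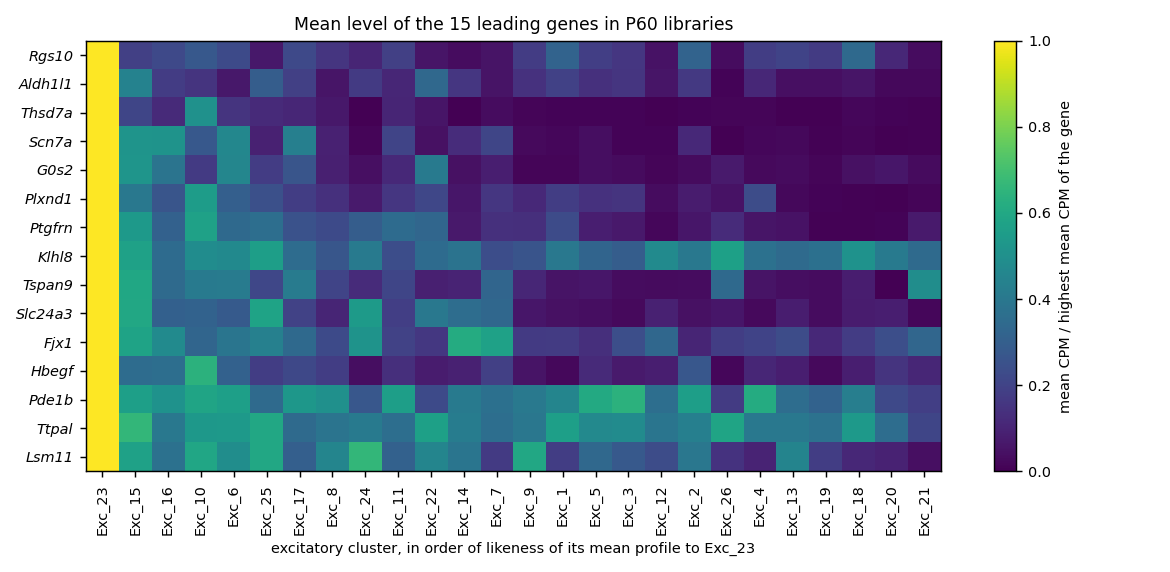
Mean CPM at P60 of the 15 leading genes (vertical axis) in each of the 26 excitatory clusters (horizontal axis), divided by the highest mean of the gene. Exc_23 holds the highest value of each, and Rgs10 is at 38.6 CPM or less in every other cluster against 113 CPM in Exc_23.

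In single cells, a cell of Exc_23 at P60 had UMIs of a median of 7 of the 15 leading genes (1 to 15). Thsd7a was seen in 72.8% of Exc_23 cells, in 8.61% of the other excitatory cells and in 2.50% of endothelial cells, at median depths of 16300, 13490 and 4516 UMIs per cell. With each cell thinned to 2000 UMIs the shares of Thsd7a were 16.1% in Exc_23 and 1.6% in the other excitatory cells. Scn7a was seen in 60.9%, 10.1% and 0.196% of the same cells. Rgs10 was seen in 68.9% of Exc_23 cells, 17.4% of other excitatory cells and 13.8% of endothelial cells, and in 98.3% of microglia.

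The 10 genes lowest in Exc_23 were taken by their ratio to the lowest other cluster, out of 4461 genes of at least 20 CPM in each of the others. Gsta4, a glutathione S-transferase that clears products of lipid oxidation, was at 15.8 ± 6.33 CPM, against 28.8 in the lowest other cluster and a median of 74.5. Atp2b1, the plasma membrane calcium pump, was at 552 ± 85.8 CPM with a median of 1223 over the other clusters and 635 in Exc_10, the lowest of them. Suclg1, an enzyme of the citric acid cycle, was at 233 ± 33.5 CPM and Cisd3, a mitochondrial iron-sulfur protein, at 90.2 ± 12.0 CPM, against medians of 295 and 127. Apart from Gsta4 and Cisd3, the 10 genes differed from the lowest other cluster by less than their SD over the libraries of Exc_23.

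Among the lists of layer markers, Exc_23 ranked highest by the IT lists of layers 4 and 5. Rorb was at 217 ± 46.6 CPM, from 152 to 327 over libraries, which was rank 3 behind Exc_10 at 291 CPM, and the median of the other clusters was 37.3. Whrn, a scaffold protein, held rank 1 at 32.4 ± 13.2 CPM with Exc_10 at 29.2, a gap smaller than the SD. Endou, a ribonuclease, was at 12.9 ± 9.71 CPM, with Exc_10 next at 2.38 and a median of 0. Hsd11b1, which regenerates active glucocorticoid, was at 25.6 ± 14.4 CPM beside 26.7 in Exc_15, so these neighbours in the order did not differ beyond their spread. Deptor, an inhibitor of the kinase mTOR, was at 62.9 ± 14.1 CPM (rank 3), and the layer 5 factor Etv1 was at 161 ± 42.3 CPM (rank 7), below 705 in Exc_21. Other members of these lists were low, with Tcerg1l at 1.3 CPM (rank 15), Batf3 at 1.61 CPM (rank 12) and Rspo1 at 2.68 CPM (rank 6, against 26.2 in Exc_11).

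As lists, the L4/5 IT markers summed to 266 ± 60.1 CPM (rank 3, median of the others 42.0) and the L5 IT markers to 520 ± 65.7 CPM (rank 4, median 155). Rorb belongs to both lists. The L2/3 IT list summed to 63.2 CPM, rank 15, with Cux2 at 25.7 and Calb1 at 9.37 CPM. The L5 pyramidal tract list summed to 495 CPM, rank 11 with a median of 462 over the others, and most of it was Crym, a thyroid hormone binding protein, at 428 CPM (rank 11). Of its other members, Fezf2 was at 44.6 CPM (rank 9), Parm1 at 18.7 (rank 8), Bcl11b at 1.91 and Pou3f1 at 0.642 CPM. The corticothalamic list summed to 43.8 CPM (rank 17), with Rprm at 29.5, Tle4 at 12.9, Foxp2 at 1.04 and Syt6 at 0.096 CPM. The layer 6b genes Nxph4 and Moxd1 were at 0. Tshz2, a marker of near-projecting neurons, was at 14.8 CPM in Exc_23 and at 2098 in Exc_21. Scnn1a, a marker of layer 4 in sensory cortex, was at 0.688 CPM.

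**Figure D2:**
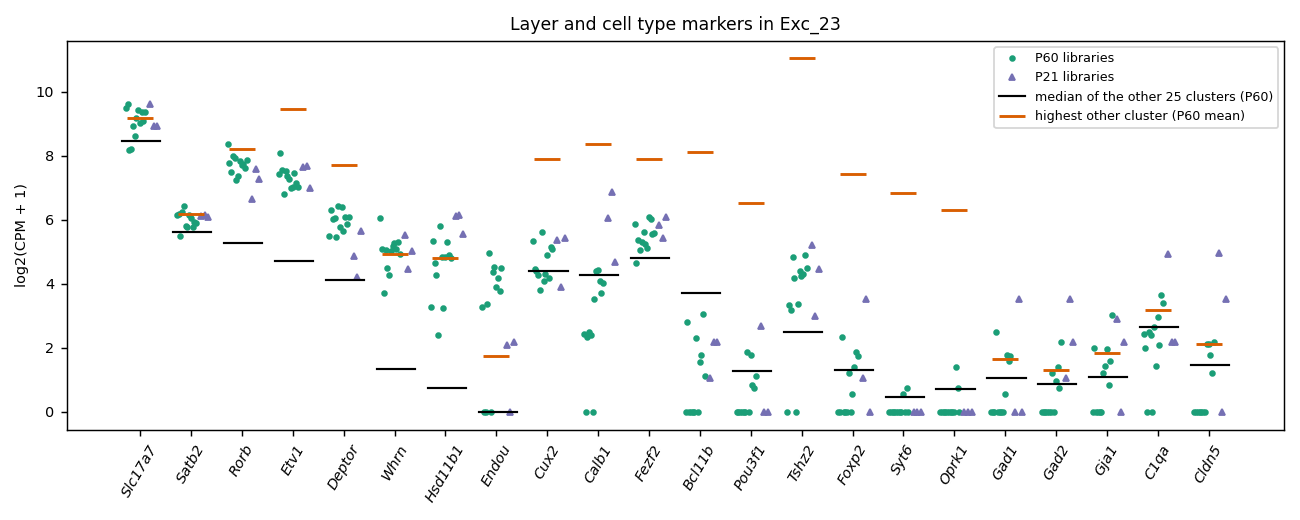
Level of 22 marker genes as log2(CPM + 1) in Exc_23, with a dot for each P60 library and a triangle for each P21 library, the median of the other 25 excitatory clusters as a black line and the highest of them as an orange line. Rorb, Whrn, Endou and Hsd11b1 lie near or above the highest other cluster, while Bcl11b, Pou3f1, Foxp2, Syt6 and Oprk1 lie low and Fezf2, at 44.6 CPM, does not.

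Over 8086 genes of at least 10 CPM, the mean levels of Exc_23 correlated most with Exc_15 (r = 0.977), Exc_16 (0.972) and Exc_10 (0.968), and least with Exc_21 (0.871). These values describe likeness across genes, which are not replicates, between cells of the same libraries. The 3 most like clusters share Rorb, which was seen in 76.1% of their cells and in 92.3% of the cells of Exc_23.

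Families of synaptic and guidance genes gave a further description. Of 8116 genes at 10 CPM or more, 17.1% held ranks 1 to 3 in Exc_23 and 7.05% ranks 24 to 26. Synaptotagmins, the calcium sensors of vesicle release, summed to 5190 ± 257 CPM (rank 1, median of the others 4023), and 5 of their 9 expressed members held ranks 1 to 3. Syt4 was at 1045 ± 81.5 CPM against a median of 586, and Syt1 was at 2464 ± 180 CPM. Ephrins and their receptors held rank 1 with 974 ± 130 CPM, of which 470 ± 62.1 CPM was the guidance receptor Epha4 (Exc_15 at 402, median 246), and 2 of 9 expressed members held ranks 1 to 3. The Slit, Robo, Unc5 and netrin genes (252 ± 49.0 CPM) and the metabotropic glutamate receptors (407 ± 46.9 CPM) also held rank 1 by sum, though 1 of 6 and 2 of 6 of their expressed members held ranks 1 to 3. The neurexins, neuroligins and LRRTMs and the GABA-A receptors were both at rank 3. Other such families were lower in the order, with semaphorins, plexins and neuropilins at rank 10, NMDA receptors at rank 11, cadherins and protocadherins at rank 19 and AMPA and kainate receptors at rank 21.

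Ion channels had single members at rank 1. Kcnk2, a leak potassium channel, was at 69.2 ± 26.6 CPM (rank 1, median 11.4), and Cacna1i, a T-type calcium channel, at 58.1 CPM (rank 1, median 18.5). Neither was among the 15 genes more than 1.5-fold above the next cluster, so at least 1 other cluster was nearer to each than these medians show. Of 35 expressed potassium channel genes 11 held ranks 1 to 3, and of 23 sodium and calcium channel genes 8 did. Htr2c, a serotonin receptor, was at 40.3 ± 19.6 CPM (rank 2, median 1.57). At the other end, oxidative phosphorylation genes summed to 52240 ± 4379 CPM, rank 24 with a median of 57130, and 15 of 73 held ranks 24 to 26 while none held ranks 1 to 3. Scg2, a granule protein of neuropeptide release, was at 83.2 CPM (rank 25, median 222), and Pcdh17, a protocadherin, at 36.2 CPM (rank 25, median 130).

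The share of Exc_23 among excitatory neurons varied between libraries. Among the P60 libraries it was lowest in library 6 (1.29%, 95% Wilson interval 0.704% to 2.36%, for 10 cells) and highest in library 2 (5.92%, 3.82% to 9.06%, for 19 cells). Cocaine libraries had 3.24% ± 1.44 and saline libraries 3.65% ± 1.39 (SD, n = 6 each), and the groups overlapped (difference −0.405 percentage points, exact permutation within time points, two-sided p = 0.694). The P21 libraries had 2.78%, 1.81% and 1.26%, and their mean of 1.95% ± 0.770 differed from that of the saline P60 libraries by −1.70 percentage points (exact permutation test, two-sided p = 0.0952, n = 3 and 6). The intervals cover counting error alone.

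The cells of Exc_23 were deeper at P60 than at P21. Median UMIs per cell were 13966, 11062 and 12019 in the P21 libraries and 17738 ± 1951 (SD, n = 6) in the saline P60 libraries, a difference of −5390 (exact permutation test, two-sided p = 0.0119, the smallest that 84 splits can give). In the plot of shares and depth, Exc_23 lay above the other excitatory neurons in median depth over all P60 cells (16300 against 13490 UMIs). The mitochondrial share of UMIs was 3.19% to 3.41% at P21 and 1.76% to 2.66% in the saline P60 libraries. The part of depth and mitochondrial RNA in the age differences was not tested.

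**Figure D3:**
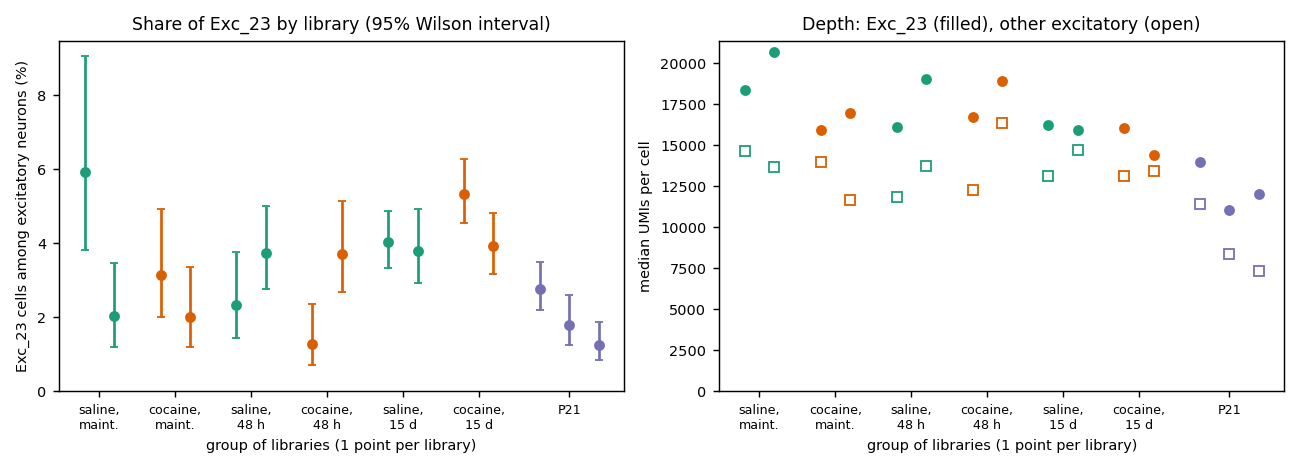
Left, share of Exc_23 among excitatory neurons in each of the 15 libraries (percent, bars are 95% Wilson intervals). Right, median UMIs per cell in the same libraries, filled for Exc_23 and open squares for the other excitatory clusters; the P21 libraries, at 11062 to 13966 UMIs, lie below the saline P60 mean of 17738.

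The comparison of P21 with P60 asked how the transcriptome of these neurons differs between the ages. The saline P60 libraries covered all time points. Age here cannot be told apart from library preparation or from the procedures of self-administration. UMIs were summed per library, and the 3 P21 libraries were compared with the 6 saline P60 libraries by edgeR's quasi-likelihood test. Of 5403 genes tested, 178 (3.29%) were higher and 320 (5.92%) lower at P60, 498 or 9.22% in all, at a Benjamini-Hochberg adjusted p under 0.05 and a change above 1.5-fold. Without P21 library 1 the counts were 212 higher and 237 lower, and with all 12 P60 libraries 193 and 219. The libraries of the 2 ages did not overlap in 787 (14.6%) of the 5403 genes. The largest changes named below were picked among called genes without overlap. P-values here measure the spread between libraries of pooled mice. Log2 changes below are P60 minus P21, with their SE.

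The largest rises to P60 included an enzyme and genes of the membrane and cytoskeleton. Ass1 (ENSMUSG00000076441), an enzyme of arginine synthesis, was at 7.59, 0 and 0 CPM in the P21 libraries and at 77.2 to 111 CPM, with a median of 91.9, in the saline P60 libraries. No library of one age reached the range of the other, and the log2 change of 4.23 ± 0.38 (edgeR quasi-likelihood, Benjamini-Hochberg adjusted p = 1.16e-10), or 18.7-fold, rested on 7 UMIs at P21. Its change in the other excitatory clusters of the same libraries was 2.90.

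Nrsn2, a membrane protein of neuronal vesicles, was at 38.0, 35.0 and 42.3 CPM at P21 and at 85.6 to 176 CPM (median 125) in saline P60 libraries. All P60 libraries lay above all P21 libraries (log2 change 1.76 ± 0.23, edgeR adjusted p = 7.13e-07). Sept4, a septin of the cell cortex, was at 28.2, 10.5 and 3.52 CPM at P21 and at 51.3 to 81.7 CPM (median 67.8) at P60, again without overlap (1.77 ± 0.30, edgeR adjusted p = 6.02e-05). Tnnt2, a troponin better known from heart muscle, was at 35.8, 38.5 and 21.1 CPM at P21 and at 72.7 to 117 CPM (median 104) at P60 (1.6 ± 0.23, edgeR adjusted p = 3.34e-06). Further genes among the largest rises were Pamr1 (1.67), Anxa11 (1.58), Hap1 (1.51), Fxr1 and Zfp941 (1.49 each), and Myl6b (1.79), which lies within 300 bases of Myl6 and may share its reads. None of these further genes was called with the library score, described below, as a covariate.

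Several genes of axon growth and immediate early genes fell. Marcksl1, an actin-binding protein of growing neurites, was at 400, 339 and 320 CPM at P21 and at 72.7 to 132 CPM (median 107) at P60, without overlap (−1.77 ± 0.15, edgeR adjusted p = 3.95e-11). Gap43, the growth cone protein, was at 1269, 1945 and 2084 CPM at P21 and at 907 to 1149 CPM (median 1026) at P60, without overlap (−0.78 ± 0.13, edgeR adjusted p = 3.32e-05). With Fscn1 (−1.06), an actin bundler, they made 3 of 14 tested axon growth genes that were lower, where 5.92% of all genes tested were, and 0 that were higher, with a list median of −0.437 against −0.0008 over all genes tested. A library score, the mean of 25 genes that set 2 saline libraries apart, was higher in each P21 library than in any saline P60 library. A fit with this score as a covariate therefore cannot tell score and age apart. In that fit Fscn1 was at −0.98 and did not pass (edgeR adjusted p = 0.239).

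Of 12 immediate early genes, which respond to neuronal activity and to tissue handling alike, 6 were lower at P60, where 5.92% of all genes tested were, and 0 higher, with a median of −0.943. With the library score as a covariate, Nr4a1 alone of the 6 passed (−1.85, edgeR adjusted p = 0.0324), and Ier2 was at −1.77 (edgeR adjusted p = 0.341). Junb was at 221, 196 and 187 CPM at P21 and at 16.1 to 67.5 CPM (median 29.6) at P60 (−2.60 ± 0.33, edgeR adjusted p = 0.000407), and Ier2 was at 78.1, 42.0 and 42.3 CPM and at 0 to 11.8 CPM (median 3.46) (−3.37 ± 0.39, edgeR adjusted p = 1.17e-07). The ages did not overlap in either gene. Nr4a1 (−1.42), Btg2 (−1.06), Npas4 (−0.95) and Dusp1 (−0.94) were the others, while Fos, at −1.27, did not pass (edgeR adjusted p = 0.113).

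**Figure D4:**
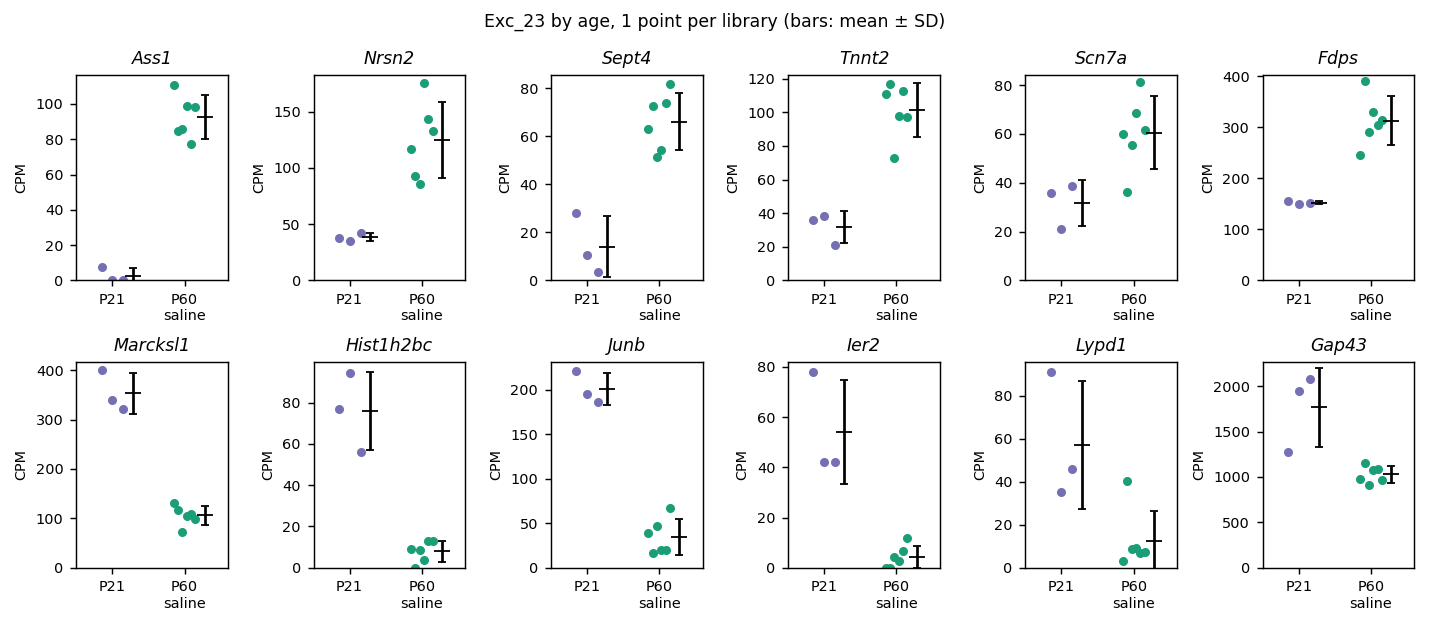
CPM of 12 genes in Exc_23 in each saline P60 and P21 library, with bars for mean ± SD. Ass1, Nrsn2, Sept4, Tnnt2, Scn7a and Fdps are higher at P60, and Marcksl1, Hist1h2bc, Junb, Ier2, Lypd1 and Gap43 higher at P21; Ass1 is at 0 in 2 of the 3 P21 libraries.

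Enzymes of cholesterol synthesis rose in part, with 3 of 10 higher, where 3.29% of all genes tested were, and 0 lower, and a median of 0.47. Fdps, which makes farnesyl diphosphate, was at 155, 151 and 151 CPM at P21 and at 246 to 391 CPM (median 309) at P60, without overlap (1.01 ± 0.16, edgeR adjusted p = 2.05e-05), though it lies next to Rusc1 on the same strand. Sc4mol rose by 0.93 and Fdft1 by 0.61, and with the library score neither passed (Sc4mol 1.10, edgeR adjusted p = 0.0755, and Fdft1 0.34, edgeR adjusted p = 0.751). Among 9 tested epigenetic regulators that the study names, 1 was higher, the arginine methyltransferase Prmt1 (0.70). Another 4 were lower, including the DNA methyltransferase Dnmt3a (−1.20) and Mbd3 (−0.93), against 3.29% and 5.92% of all genes tested. The study names such genes for changes between the same ages in the same data, so these counts are not an independent result. With the library score none of the 5 passed; Dnmt3a was at −1.46 (edgeR adjusted p = 0.0603), Prmt1 at 0.71 and Mbd3 at −0.31. Of 73 oxidative phosphorylation genes, 3 were higher (Ndufv1, Ndufs1, Uqcrc1) and 4 lower (Cox5a, Uqcrfs1, Atp5d, Atp5g1), or 9.59%, which is near the 9.22% of all genes tested, with a median of 0.0442. None of 10 heat shock genes and none of 9 GABA-A receptor genes passed in the main fit. The heat shock gene Hspa1a, which the study reports as higher at P60 in most excitatory clusters, was called only in some fits. It was called with the library score as a covariate, and that fit cannot tell score and age apart. In the interaction test described below, Hspa1a alone of 11 heat shock genes had a more positive change in Exc_23, where 0.505% of all genes tested had one.

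Among other lower genes were Hist1h2bc, a histone of a family with near-identical copies, at 77.0, 94.5 and 56.3 CPM at P21 and at 0 to 13.0 CPM (median 8.78) at P60 (−3.0 ± 0.31, edgeR adjusted p = 3.54e-09). Pfn1, which binds actin monomers, was at 267, 151 and 130 CPM at P21 and at 25.1 to 45.0 CPM (median 28.6) at P60 (−2.66 ± 0.22, edgeR adjusted p = 3.53e-10). Both were without overlap between the ages. Single members of signalling families that fell were the NMDA receptor gene Grin3a (−1.51), the channel Kcnk1 (−0.90) and the adhesion gene Nlgn3 (−0.72), and the channel subunit Kcnip3 (0.88) and the peptide Nppc (0.98) rose. With the library score none of these members was called. In the main fit 8% of 25 potassium channel genes and 11.1% of 9 neurexin, neuroligin and LRRTM genes were called, against 9.22% of all genes tested. For 7 neuropeptide and 4 NMDA receptor genes the shares were 14.3% and 25%.

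Of the 15 leading genes of the cluster 11 could be tested for age. Of these 2 were higher at P60, where 3.29% of all genes tested were, and 0 lower. The 15 were chosen on their P60 level, which includes the saline libraries of this comparison, so a rise is favoured by the choice. Of those not tested, Aldh1l1, Tspan9 and Lsm11 had higher means at P21 (28.2, 23.5 and 43.3 CPM) than over the P60 libraries (23.4, 21.9 and 20.9 CPM). Hbegf had a lower mean at P21 (15.5 against 23.6 CPM). Scn7a was at 35.8, 21 and 38.7 CPM at P21 and at 36.3 to 81.3 CPM (median 60.8) at P60, with 1 saline library inside the P21 range (0.95 ± 0.25, edgeR adjusted p = 0.00864), and G0s2 changed by 1.13 (edgeR adjusted p = 0.0345). With the library score neither passed (Scn7a 0.61, edgeR adjusted p = 0.658, and G0s2 0.73, edgeR adjusted p = 0.737). Rgs10 was at 92.2, 59.5 and 88.0 CPM at P21 and at 97.0 to 146 CPM (median 112) at P60 (0.53, edgeR adjusted p = 0.0647), and Thsd7a at 71.6, 101 and 77.4 CPM at P21 and at 64.5 to 124 CPM (median 101) at P60 (0.26, edgeR adjusted p = 0.428). Of the 8 tested genes that were lowest in Exc_23, 0 were called. Of 12 tested layer markers 4 were lower at P60, where 5.92% of all genes tested were, Hsd11b1 (−1.25 ± 0.25, edgeR adjusted p = 0.000644), Sulf2 (−0.75), Rprm (−1.45) and Lypd1 (−2.82), and Deptor alone was higher (0.96, edgeR adjusted p = 0.0104). With the library score none of these 5 passed, at −1.11 for Hsd11b1, −0.66 for Sulf2, −1.43 for Rprm, −1.66 for Lypd1 and 1.14 for Deptor. Rorb changed by 0.53, under the 1.5-fold limit.

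Genes of some other cell types were at other levels at P21. The 4 hemoglobin genes summed to 1018 to 2232 CPM at P21 and 52.8 to 299 CPM in saline P60 libraries of Exc_23, and to 1009 to 1690 and 107 to 526 CPM in the other excitatory clusters. The 9 inhibitory neuron markers summed to 49.9 to 179 CPM at P21 and 0 to 40.2 CPM at P60, with Slc32a1 and Lhx6 at 0 in all saline P60 libraries. In the same order of ages, the endothelial list summed to 49.0 to 176 and 27.7 to 56.8 CPM, the astrocyte list to 766 to 1036 and 464 to 800 CPM, the oligodendrocyte list to 45.5 to 155 and 40.3 to 142 CPM, and the microglia list to 7.0 to 101 and 12.0 to 31.6 CPM. The oligodendrocyte precursor list summed to 4.34 to 24.6 CPM at P21 and to 0 to 4.03 CPM in saline P60 libraries. The lowest P21 sum lay just above the highest saline P60 sum, and both rest on few UMIs. Olig2 was at 0 at both ages, and Bmp4 was at 0 in all saline P60 libraries. The ranges of the endothelial, astrocyte, oligodendrocyte and microglia lists overlapped between the ages, and most of the astrocyte sum was Slc1a2 (840 CPM at P21), while Aldoc of the same list was at 25.9 CPM at P21 and 76.2 CPM over the P60 libraries. Their part in the age differences was not tested.

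The libraries also differed along another line. In the other excitatory clusters, 25 genes of at least 50 CPM, among them Cck, Cox5a, Tmem93, Junb and Pfn1, were more than 2-fold apart between libraries 11 and 12, which are both saline at 15 days, and all 25 were higher in library 12. The mean of these genes in Exc_23, centred over libraries and in log2 units (the library score), was 0.717 to 1.32 in the P21 libraries, 1.00 and 0.876 in cocaine libraries 9 and 10, 0.378 in library 12 and −0.895 in library 11, and it was below 0 in the other P60 libraries. Of these 25 genes 15 were among the genes lower at P60, which made up 5.92% of all genes tested. The genes were chosen on libraries 11 and 12, which are part of that comparison. The score of the other excitatory clusters was 0.598 to 1.26 in the P21 libraries and −0.924 to 0.441 in the saline P60 libraries. Since these ranges do not overlap, score and age cannot be told apart, and a call lost with the score is assigned to neither. With this score as a covariate, 24 genes were called for age, of which 21 were among the 498, including Ass1, Nrsn2, Sept4, Tnnt2, Fdps, Marcksl1, Gap43, Hist1h2bc, Pfn1 and Nr4a1.

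The genes called in Exc_23 had changes in the same direction at the median in the other excitatory clusters, whose cells came from the same libraries. The 178 higher genes had a median of 0.828 in Exc_23 and 0.644 in the others, and the 320 lower genes −0.874 and −0.724. An interaction test, with the library as a block, asked where the change of Exc_23 differed from that of the other 25 clusters. Of 11684 genes tested, 59 (0.505%) had a more positive and 22 (0.188%) a more negative change in Exc_23, 81 or 0.693% in all, 22 genes when the 3 most like clusters stood for the others, and 46 without P21 library 1.

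Rgs10, the first of the leading genes, rose in Exc_23 relative to the others by 0.95 ± 0.16 on the log2 scale (edgeR quasi-likelihood, Benjamini-Hochberg adjusted p = 3.95e-06), with a change of −0.43 in the others, and by 0.99 relative to the 3 most like clusters. Fjx1 (0.79, edgeR adjusted p = 0.0205) was the other of the 15 leading genes that passed, and it passed in 4 of 10 alternative fits and not against the 3 most like clusters (0.76, edgeR adjusted p = 0.184). The 15 were chosen on their P60 level in Exc_23 over the other clusters, which includes the saline libraries of this test, so a positive difference is favoured by the choice. Sept4 rose more in Exc_23 by 1.57 ± 0.27 (edgeR adjusted p = 3.95e-06), with a change of 0.32 in the others. Marcksl1 fell less in Exc_23, by −1.77 against −2.90 (1.10 ± 0.13, edgeR adjusted p = 1.41e-12), and against the 3 most like clusters this difference was 0.21 (edgeR adjusted p = 0.666). Nrsn2 differed by 0.87 from all others and by −0.20 from the like clusters.

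Lypd1, a modulator of nicotinic receptors, fell more in Exc_23 (−1.97 ± 0.28, edgeR adjusted p = 2.14e-09). It was at 91.1, 35.0 and 45.8 CPM at P21 and at 3.00 to 40.3 CPM (median 7.83) at P60, and library 3 lay inside the P21 range. Without P21 library 1 the difference was −1.08 (edgeR adjusted p = 0.392). Cd24a, a surface protein of immature neurons, was at 17.4, 28 and 42.3 CPM in Exc_23 at P21 and at 0 in all 6 saline P60 libraries, against 45.6 to 102 and 5.32 to 12.3 CPM in the others. Its fitted difference of −7.57 depends on the prior count because of the zeros.

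Several genes of myelin, which oligodendrocytes make, also differed. Cldn11, a tight junction protein of myelin, had a difference of 2.78 ± 0.52 (edgeR adjusted p = 6.84e-05), and Mag, an adhesion protein of myelin, of 2.57. These differences rested on 10 and 6 UMIs in Exc_23 at P21. Of 6 tested oligodendrocyte genes 4 had a more positive change in Exc_23, among them Cldn11 and Mag, where 0.505% of all genes tested had one, with a list median of 2.59 against 0.0227 over all genes tested. The list summed to 311 to 674 CPM at P21 and 59.5 to 162 CPM at P60 in the other clusters. Sst, an interneuron peptide, had a more negative change (−2.07) and was at 19.5, 119 and 77.4 CPM in Exc_23 at P21, and at 0 to 7.39 CPM in its saline P60 libraries.

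The comparisons of cocaine with saline asked which genes respond to self-administration and withdrawal. They were fitted over all 12 P60 libraries, and all 7115 genes that passed the filter were tested. During maintenance 0 genes (0%) were called by edgeR, with 276 genes at an unadjusted p under 0.05, and DESeq2 called 0 genes (187 at that p). After 48 h of withdrawal 0 genes (0%) were called, with 282 genes at an unadjusted p under 0.05 by edgeR and 120 by DESeq2, which called 0. None of the 15 leading genes was called in any of the 4 cocaine comparisons. Of all genes tested, 0% were called at maintenance and at 48 h, 1.01% at 15 days and 0.0281% over all time points. At such shares a count of 0 among 15 genes is not a result about them.

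After 15 days of withdrawal 70 genes (0.984%) were higher and 2 (0.0281%) lower in cocaine libraries, 72 or 1.01% in all, while DESeq2 called 0. With 2 libraries a group, 37.5% of all genes tested had no overlap between the groups. Pfn1 was at 109 and 118 CPM in cocaine libraries 9 and 10 and at 28.9 and 45.0 CPM in saline libraries 11 and 12 (log2 change 1.71 ± 0.22, edgeR adjusted p = 5.21e-06). Mrps34, of the mitochondrial ribosome, was at 88.5 and 74.2 CPM and at 22.2 and 29.6 CPM (1.75 ± 0.25, edgeR adjusted p = 1.8e-05), though Nme3 lies next to it on the same strand. The uncharacterised gene 2310036O22Rik had the largest rise (2.00 ± 0.27, edgeR adjusted p = 6.12e-05). Nrgn, a calmodulin-binding protein of dendritic spines, rose by 0.89 and Grin2a, an NMDA receptor subunit, by 1.03.

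Of the 2 lower genes, Ptgds, a prostaglandin synthase of oligodendrocytes and meninges, was at 15.9 and 21 CPM in cocaine and at 64.5 and 35.5 CPM in saline libraries (−1.50, edgeR adjusted p = 0.00527). Of the 25 genes of the library score 11 were called higher in this comparison, where 0.984% of all genes tested were. These genes were chosen by their difference between libraries 11 and 12, the saline libraries of this comparison, so the count is not an independent result. The 70 higher genes had a median of 1.13 in Exc_23 and 1.02 in the other excitatory clusters of the same libraries. With the score as a covariate 1 gene was called, Hspa1a, which was lower in cocaine libraries, and 0 of the 72 were. Hspa1a was also called for age with this covariate. The count was 0 without library 11, 10 without library 9, 42 without library 10, 123 without library 12, and 118 and 109 without the cocaine maintenance libraries 1 and 4.

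**Figure D5:**
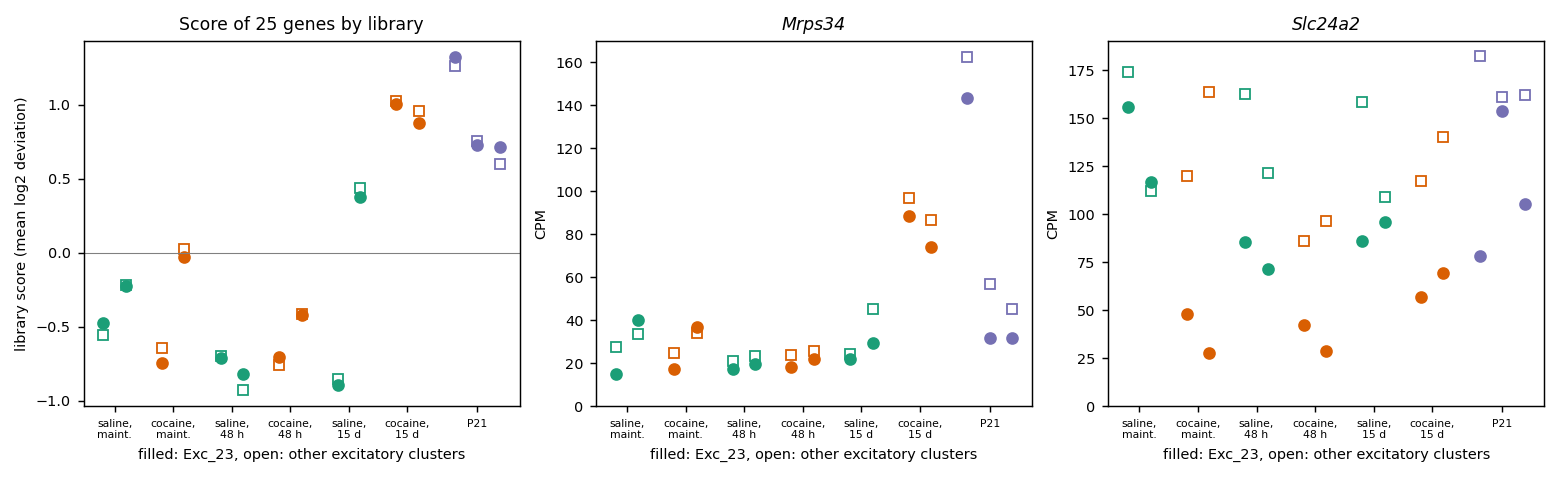
Library score (log2 units) and CPM of Mrps34 and Slc24a2 in each library, filled for Exc_23 and open for the other excitatory clusters, with saline in green, cocaine in orange and P21 in purple. The score of Exc_23 is above 0 in libraries 9, 10 and 12 and in the P21 libraries, and Slc24a2 in Exc_23 is lower in all 6 cocaine libraries than in any saline library.

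Over all time points 1 gene was lower (0.0141%) and 1 higher (0.0141%) in cocaine libraries, 2 or 0.0281% in all, with counts of 20 without library 12, 5 without library 1 or 4, 1 without library 2, 5, 7, 9, 10 or 11, and 0 without library 8. Slc24a2 (ENSMUSG00000037996), a neuronal exchanger of calcium against sodium and potassium, was at 71.3 to 156 CPM (median 90.9) in the 6 saline libraries and at 27.8 to 69.4 CPM (median 45.2) in the 6 cocaine libraries. The groups did not overlap (−1.21 ± 0.19, edgeR adjusted p = 0.000321), and the change in the other excitatory clusters was −0.23 (edgeR adjusted p = 0.698). Without library 8 (cocaine, 48 h) the change was −1.07 (edgeR adjusted p = 0.176), and with 10 cells from each library −0.78 (edgeR adjusted p = 0.999).

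Mtmr1, a phosphatase of membrane lipids, was the other gene. It was at 4.28 to 20.1 CPM (median 11.4) in saline and at 18.8 to 48.0 CPM (median 34.6) in cocaine libraries (1.6 ± 0.32, edgeR adjusted p = 0.0223), with a small overlap of the groups. It was called in 9 of 18 alternative fits, and DESeq2 gave a log2 change of 1.6 with an adjusted p of 0.690.

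The interaction test of Exc_23 against the other excitatory clusters called 1 of 12191 genes for cocaine over all time points (0.0082%), and 451 had an unadjusted p under 0.05. That gene was Slc24a2, which differed by −0.68 ± 0.15 (edgeR quasi-likelihood, Benjamini-Hochberg adjusted p = 0.0421) and passed in 7 of 14 alternative fits. It did not pass without library 2, 3, 4, 8 or 12, against the 3 most like clusters, or at 15 days alone, and its direction was the same in each of these. The interaction and the comparison within Exc_23 share the same libraries.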

How the data were processed

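Single-cell suspensions of the PFC were measured in 15 libraries. The authors ran Cell Ranger (version 13.1 in the submitters' processing notes, given differently in the methods) on the mm9 genome to count UMIs, filtered and clustered cells with Seurat 2.1.0, and deposited the UMI counts without normalization. The deposited table of cells gives the cluster of each retained cell and, as a fraction, the share of its UMIs from mitochondrial genes. Cells with over 10% mitochondrial UMIs or very many genes, and manually judged doublets, had been removed by the authors, and no doublet caller was run.

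Cell barcodes were joined to the table, and of the 26145 listed genes the 13 of the mitochondrial genome and 141 for ribosomal proteins were not used. UMIs were summed per library (10 cells or more; 164978 to 2078870 UMIs of Exc_23), so a level of 0 in all P21 or saline P60 libraries allows up to 2.01 or 0.768 CPM at 3 counts. Levels of a cluster used libraries with at least 10 of its cells. edgeR 4.0.16 in R 4.3.3 (filterByExpr, TMM, robust quasi-likelihood) tested all genes, with Benjamini-Hochberg adjustment, an adjusted p under 0.05 and 1.5-fold as limits. An age fit used 9 libraries, a cocaine fit 12 with a mean for each group, and an interaction fit the library as a block. Shares were compared by exact permutation, two-sided. DESeq2 1.42.0, other filters, cell numbers, thresholds, cell sets, leaving out each library, and a library score were alternatives. The fits were tested on simulated data. Genes were named by rule: the 15 highest and 10 lowest ratios to other clusters, the 10 largest non-overlapping age changes, the 5 largest cocaine and interaction changes in each direction, members of the gene lists, and genes that the study's text names. The cluster, the lists and the rules were chosen with earlier results of these data known. Gene positions are from the GENCODE annotation of NCBIM37; a gene with another on its strand within 300 bases of its end may share reads with it. Promoter sequences are RefSeq's (GRCm38.p6). Tables were handled in pandas 2.3.3 and numpy 2.4.6 (python 3.11.15), with permutations in scipy 1.17.1. One gene that the rules would name is not reported here.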

Additional observations from a re-analysis of the deposited data

Results flagged for a closer look

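Single libraries stood apart in 9 of 81 gene and group values tested by the gap to the nearest library over the whole range (Dixon's 95% limit), where chance alone gives about 1 in 20. In the saline P60 libraries of Exc_23 the gap ratio was 0.781 for Cisd3 (115 CPM in library 7, median 88.7), 0.726 for Atp2b1 (779 in library 5, median 520), 0.690 for Pamr1 (141 in library 5, median 96.8) and 0.756 for Pfn1 (45.0 in library 12, median 28.6). It was 0.817 for Nr4a1 and 0.705 for Sulf2, both high in library 2 (81.0 CPM each, medians 39.3 and 51.9). It was 0.833 for Lypd1 (40.3 CPM in library 3, median 7.83), 0.643 for Yeats4 (61.5 in library 12, median 26.6) and 0.845 for Dnmt3a, which was low in library 3 (12.1 CPM, median 50.6). Libraries 2, 3 and 5 held 19, 13 and 16 cells of Exc_23, and libraries 7 and 12 held 42 and 53. The part of counting error in these gaps was not tested.

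Several age changes differed between Exc_23 and the other excitatory clusters by the interaction test. On the log2 scale the difference was 2.78 for Cldn11 (10 UMIs in Exc_23 at P21), 2.57 for Mag (6 UMIs) and 0.936 for Mbp, all genes of myelin. It was 0.95 for Rgs10, 1.10 for Marcksl1, 1.57 for Sept4, 1.16 for Pamr1, 0.867 for Nrsn2, 0.787 for Fjx1 and 0.656 for the transcription factor gene Neurod2. For other genes of few UMIs it was 9.06 for Mex3d, an RNA-binding protein with 0 UMIs in Exc_23 at P21, 2.91 for the peptide gene Nts (16 UMIs at P21) and 2.76 for the peptide gene Calca (4 UMIs at P21). The change was more negative in Exc_23 by −7.57 for Cd24a, −2.30 for Rab3b, a small GTPase of vesicles, −2.07 for Sst, −1.97 for Lypd1 and −1.37 for Calb1, a calcium buffer. The cocaine change of Slc24a2 differed by −0.685. For Mex3d and Cd24a 1 age is at 0 in all libraries of Exc_23, so the fitted size depends on the prior count.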

How the results depend on the processing

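Counts of called genes depended on the setting. For age, where 498 were called, a Bonferroni limit gave 97, DESeq2 319 (289 shared), 10 cells per library 128, the 15-day saline libraries alone 238 and the library score 24; leaving out 1 library gave 381 to 547. For cocaine at 15 days, where 72 were called, the counts were 25 with Bonferroni, 0 with DESeq2, 118 with a minimum of 20 cells, 0 with 10 cells per library and 1 with the score, and 0 to 123 without 1 library (0 without library 11, 10 without library 9, 42 without library 10). Over all time points the 2 genes became 1 with DESeq2, 0 with 10 cells per library and 1 with the score (0 to 20 without 1 library). Maintenance gave 1 without the filter on low counts and 1 with the score (0 to 9 without 1 library, 9 being without library 4, where the lone cocaine library is assumed to vary like the others), and 48 h gave 0 to 0. The interactions, with 81 genes for age and 1 for cocaine against all other clusters, gave 22 and 0 against the 3 most like clusters; against all other clusters without 1 library they gave 46 to 95 and 0 to 2. The share difference for cocaine was 0.0583 over all retained cells (p = 0.907 by exact permutation) and −0.826 to 0.0490 without 1 library, 0.0490 being without library 2; that for age was −2.11 to −1.24, and the depth difference −6198 to −4746.

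Directions reversed for Etv1 with age (0.12 with 10 cells per library, −0.28 to 0.0026 without 1 library, the last without P21 library 1), Thsd7a with age (−0.24 with 10 cells, −0.10 with the score), Yjefn3 at 15 days (−0.048 with the score) and Nrsn2 in the interaction (−0.20 against the like clusters). Of the other values for named changes, 1331 kept their direction and side of the threshold, 308 lost the call and 10 gained it. The cause was not tested. The score, the 15-day saline libraries alone, cells of the excitatory class alone and the 15-day interaction were chosen after seeing the data. A minimum of 20 cells left no maintenance libraries to test. Libraries 1 to 6 held 10 to 19 cells, which limits what maintenance and 48 h can show. No paired analysis was made because no label pairs libraries between groups.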
